A study of Mus musculus with 8 samples.

Results

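The insulin-like growth factor (IGF) genes described here are 10 genes chosen by their symbols: the ligands Igf1 and Igf2, the receptors Igf1r and Igf2r, and the binding proteins Igfbp2, Igfbp3, Igfbp4, Igfbp5, Igfbp6 and Igfbp7. All 10 were found among the 54752 genes of the count tables, and all 10 were among the 17136 genes with enough counts to be tested. RNA of the right cerebral cortex came from 4 sham and 4 BCAS mice, 1 animal in each library. The animals were wild-type mice, C57BL/6 in the labels and adult male C57BL/6 J in the methods, and the tissue was collected 3 weeks after the operation. In bilateral carotid artery stenosis (BCAS), microcoils around both common carotid arteries narrow the vessels and lower cerebral blood flow, and the tighter coil was on the right, the side sequenced here. Sham mice had the arteries exposed without coils. The right cortex was sequenced as bulk tissue, so a change in the number of cells of a type and a change in the RNA of each cell cannot be told apart.

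IGF1 and IGF2 are small secreted peptides related to insulin, and IGF1 is a growth and survival factor for neurons and glia. Both act through the receptor tyrosine kinase IGF1R, while IGF2R, which is also the cation-independent mannose 6-phosphate receptor, takes up IGF2 for degradation and carries enzymes to lysosomes. IGFBP2 to IGFBP6 bind the ligands with high affinity and thereby hold, carry or release them, and IGFBP7 is a relative with low affinity for them. In the brain, Igf1 is transcribed by microglia and by some neurons, whereas Igf2 comes mostly from the meninges, the vessels and the choroid plexus.

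The libraries held 16759364 to 18564612 counted read pairs in sham mice and 17498316 to 21794435 in BCAS mice. Levels are CPM, each library's counts scaled to its TMM-adjusted total, and where no read was counted a level of up to 0.132 to 0.187 CPM, the value of 3 counts on this scale in the different libraries, cannot be told from 0 by counting error alone. Sham mouse 3 stood apart in choroid plexus and oligodendrocyte transcripts. The summed level of 7 choroid plexus markers was 784 CPM in this mouse, 18.3 to 52.5 CPM in the other sham mice and 40.9 to 76.0 CPM in BCAS mice. The oligodendrocyte markers summed to 3265 CPM in sham mouse 3, 5002 to 5211 CPM in the other sham mice and 4498 to 6827 CPM in BCAS mice, and the endothelial and mural sums were also lowest in this sham mouse. Excitatory neuron markers, which define the labelled tissue, summed to 5260 to 6226 CPM in sham mice and 2079 to 4681 CPM in BCAS mice, with no overlap. The 5 striatal markers summed to 153 to 275 CPM in sham mice, 195 to 232 CPM in BCAS mice 1 to 3 and 448 CPM in BCAS mouse 4. The BCAS mice also differed among themselves, with BCAS mouse 1 farthest from the sham mice in most marker lists and BCAS mouse 2 nearest. The sum of 5 microglial markers was raised 10.4-fold over the sham mean in BCAS mouse 1, 2.99-fold in mouse 2, 5.33-fold in mouse 3 and 5.66-fold in mouse 4.

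The bases in front of the gene starts are shown for Igf1 and Igf1r, the ligand whose level differed most between the groups and its receptor, and for Igfbp2 and Igfbp5, which lie tail to tail on chromosome 1. The sequences are RefSeq's, from assembly GRCm38.p6, read on the strand of the gene over the 250 bases before its start, and capitals mark CpG dinucleotides. RefSeq's starts are not those of the GENCODE genes whose coordinates are given with the values: the Igf1 start lies 2846 bases inside the GENCODE gene and the Igfbp5 start 19 bases inside, while those of Igf1r and Igfbp2 lie 570 and 23 bases before it. Igf1 (plus strand, chr10:87860861-87861110), Igf1r (plus strand, chr7:67952007-67952256), Igfbp2 (plus strand, its first listed start, chr1:72824230-72824479) and Igfbp5 (minus strand, chr1:72874866-72875115) have the following bases.
Igf1: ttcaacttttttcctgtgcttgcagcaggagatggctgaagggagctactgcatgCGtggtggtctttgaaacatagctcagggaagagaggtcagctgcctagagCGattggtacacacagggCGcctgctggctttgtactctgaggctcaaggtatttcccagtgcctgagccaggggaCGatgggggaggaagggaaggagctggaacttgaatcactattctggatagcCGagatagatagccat
Igf1r: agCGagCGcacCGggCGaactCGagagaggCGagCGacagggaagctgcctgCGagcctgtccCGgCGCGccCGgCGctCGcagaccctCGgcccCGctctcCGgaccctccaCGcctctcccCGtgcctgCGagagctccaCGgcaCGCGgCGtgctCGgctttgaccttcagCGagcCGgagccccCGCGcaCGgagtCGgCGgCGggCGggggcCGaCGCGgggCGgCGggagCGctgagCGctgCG
Igfbp2: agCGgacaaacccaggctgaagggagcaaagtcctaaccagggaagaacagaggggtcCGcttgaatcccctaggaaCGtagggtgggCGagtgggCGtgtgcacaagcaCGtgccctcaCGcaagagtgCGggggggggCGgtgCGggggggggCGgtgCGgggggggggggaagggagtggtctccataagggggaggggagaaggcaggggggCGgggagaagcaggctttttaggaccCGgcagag
Igfbp5: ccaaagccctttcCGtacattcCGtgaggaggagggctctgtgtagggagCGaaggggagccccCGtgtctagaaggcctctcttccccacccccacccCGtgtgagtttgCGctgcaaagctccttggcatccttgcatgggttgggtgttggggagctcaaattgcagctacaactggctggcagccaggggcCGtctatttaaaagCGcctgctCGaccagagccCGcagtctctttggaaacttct
The Igf1 window held 5 CpG dinucleotides and a GC content of 52.8%, close to the medians of 6 and 52.4% over 32851 RefSeq starts. The Igf1r window held 42 CpG dinucleotides and 77.6% GC, and 0.865% of all windows held at least as many. Igfbp2 had 14 and Igfbp5 had 10. A total of 5 motifs were searched on both strands in the 14 windows of the 10 genes. No window held the STAT5 palindrome TTCNNNGAA, the interferon-stimulated response element core or the PU.1 core GAGGAAGT, which were found in 7.02%, 2.98% and 2.44% of all windows. The TATA box TATAAA, found in 12.4% of all windows, began 28 bases before the Igfbp4 start on the strand of the gene, and a match on the opposite strand lay 148 bases before the Igfbp6 start. The hypoxia response element core ACGTG, found in 16.6%, was in 1 window each of Igf2, Igf2r, Igfbp2 and Igfbp7, and in Igf2r and Igfbp2 matches on both strands overlapped in CACGTG.

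Of the 10 genes, 6 were upregulated in BCAS mice at an adjusted p below 0.05 with a log2 fold change beyond 1 in size (quasi-likelihood test of edgeR, Benjamini-Hochberg adjustment), where 11.0% of all tested genes were. They were both ligands and the binding proteins Igfbp2, Igfbp3, Igfbp5 and Igfbp7. The fits that left out 1 mouse gave 3 to 6. With limma-voom and with limma on log2(CPM + 1) it was 5, without Igfbp3, whose log2 fold changes were 0.93 and 0.86. By edgeR's quasi-likelihood test 0 of the 10 were lower at these thresholds, where 1.28% of all tested genes were, and DESeq2 also gave 0. Igfbp6 fell past the adjusted p alone, as did 12.8% of all tested genes, and it was the 1 gene of the family that was lower at an unadjusted p under 0.05. Igf1r, Igf2r and Igfbp4 did not pass the test. The median log2 fold change was 1.17 over the 10 genes and -0.01 over all tested genes. The values of the groups did not overlap for 5 genes that were higher, against 18.5% of all tested genes, and for 1 gene that was lower, against 16.3%.

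**Figure D1:**
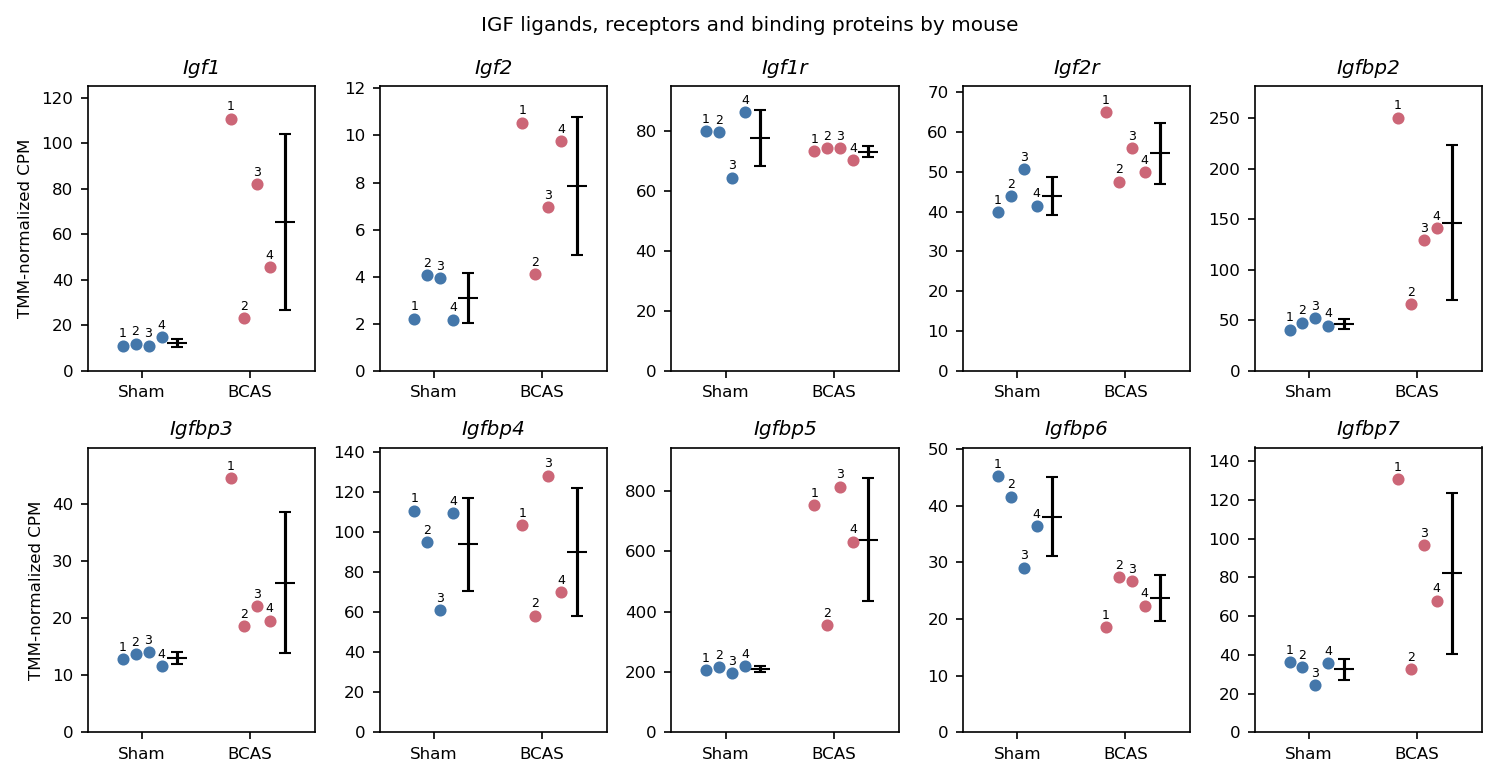
TMM-normalized CPM (linear axes from 0) of the 10 genes in each of the 4 sham (blue) and 4 BCAS (red) mice, with the mouse number above each point and the mean ± SD as a black bar. BCAS mouse 2 lies nearest to the sham mice in the 6 upregulated genes, and sham mouse 3 is the lowest sham mouse in Igf1r, Igfbp4, Igfbp5, Igfbp6 and Igfbp7.

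Igf1 (ENSMUSG00000020053.18, GENCODE on mm10, chromosome 10, 87858265 to 87937042, plus strand) had 11.1, 12.04, 11.2 and 14.9 CPM in sham mice 1 to 4. In BCAS mice 1 to 4 it had 111, 23.2, 82.0 and 45.5 CPM. Every BCAS mouse was above every sham mouse, but the level in BCAS mouse 1 was several times that in BCAS mouse 2. The mean rose from 12.3 ± 1.78 (SD, n = 4) to 65.4 ± 38.8 CPM (SD, n = 4), a log2 fold change of 2.41 ± 0.42 (SE) with an edgeR adjusted p of 0.00558. This was the largest change of the 10 genes. Without BCAS mouse 1 the log2 fold change was 2.04, and Igf1 stayed past both thresholds in all 8 fits that left out 1 mouse.

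The increase of Igf1 came in libraries in which the markers of microglia and phagocytes were also higher. All 5 microglial markers (Aif1, Cx3cr1, P2ry12, Tmem119 and Csf1r) rose, and their sum was 220.0 to 266 CPM in sham and 720 to 2496 CPM in BCAS mice. All 6 phagocyte markers rose as well, from a sum of 37.7 to 51.6 CPM to a sum of 257 to 2302 CPM. Relative to the sham mean, Igf1 was at 9.01, 1.88, 6.66 and 3.70 in BCAS mice 1 to 4, and the phagocyte sum was at 53.6, 5.98, 34.9 and 19.3, the same order of mice. The sums of astrocyte, fibroblast and blood leukocyte markers had this order too, whereas the microglial sum was higher in BCAS mouse 4 than in mouse 3. None of these microglial and phagocyte markers was at 0 in all libraries. Their part in the difference of Igf1 was not tested.

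Igf2 (ENSMUSG00000048583.16, chromosome 7, 142650766 to 142666816, minus strand) had 39, 65, 69 and 36 counts in sham mice and 240, 80, 129 and 179 counts in BCAS mice 1 to 4. These counts correspond to 2.22, 4.06, 3.95 and 2.17 CPM in sham mice and 10.6, 4.12, 6.97 and 9.75 CPM in BCAS mice. The groups did not overlap, but BCAS mouse 2 was level with sham mice 2 and 3. Igf2 thus had a log2 fold change of 1.34 ± 0.34 (SE) with an edgeR adjusted p of 0.0206. The adjusted p exceeded 0.05 when sham mouse 1 (0.0632), sham mouse 4 (0.0604) or BCAS mouse 4 (0.0552) was left out, while the log2 fold change stayed at 1.20, 1.20 and 1.22. Without sham mouse 3, the mouse with the choroid plexus transcripts, the log2 fold change was 1.47 (adjusted p = 0.0337 from edgeR's test).

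Igf2 is measured less completely than the other members. Gm49394, a gene annotated on the same strand, covers 62.8% of its exon bases and had 0 counts in every library. The recorded counting call had no option to assign a read pair that falls on several genes, so such pairs appear to have been left out. The Igf2 counts therefore appear to come mostly from the remaining exon bases, of which 2029 are shared with no gene. This is inferred from the call and the 0 counts of Gm49394. The exon bases of the antisense transcript Igf2os cover 1.71%, with 0 to 7 counts in sham and 4 to 19 counts in BCAS mice. H19, an imprinted noncoding RNA that lies 72622 bases from Igf2, did not pass the filter on low counts and had 4, 0, 8 and 2 counts in sham mice and 55, 10, 95 and 11 counts in BCAS mice 1 to 4.

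Markers of fibroblasts and meninges were higher together with Igf2. All 7 of them (Dcn, Lum, Col1a1, Col1a2, Col3a1, Slc22a6 and Aldh1a2) rose, and their sum was 74.1 to 99.5 CPM in sham and 171 to 931 CPM in BCAS mice, with none of the 7 at 0 in all libraries. The order of the mice was not the same, since the marker sum was at 10.7, 1.961, 10.5 and 4.89 times the sham mean in BCAS mice 1 to 4 and Igf2 at 3.41, 1.33, 2.25 and 3.15 times. Choroid plexus markers could not be compared over all libraries because of their level in sham mouse 3. Without this mouse their mean sum was 31.3 CPM in sham and 50.7 CPM in BCAS mice, 1.62-fold higher, with 0 of 6 tested markers past an adjusted and 2 past an unadjusted p of 0.05 in edgeR's test. Of the meningeal markers, Aldh1a2, which makes retinoic acid, was also among the 3 genes with the profile most like that of Igf2 over the 8 libraries, with a root-mean-square difference of 0.22 in log2 CPM. Their part in the difference of Igf2 was not tested.

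The signalling receptor Igf1r (ENSMUSG00000005533.10, chromosome 7, 67952827 to 68233668, plus strand) had 79.9, 79.4, 64.3 and 86.2 CPM in sham mice and 73.3, 74.2, 74.2 and 70.3 CPM in BCAS mice 1 to 4. The BCAS values lay inside the range of the sham values because of sham mouse 3, and all 4 were below the other 3 sham mice. The coefficient of variation was 11.96% in sham mice, 4.60% in sham mice without mouse 3, and 2.52% in BCAS mice. The log2 fold change of -0.09 had a standard error of 0.09 (adjusted p = 0.502 from edgeR's test), and its sign changed with scaling by library size alone. Without sham mouse 3 it was -0.17 (adjusted p = 0.110 from edgeR's test).

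The mannose 6-phosphate receptor Igf2r (ENSMUSG00000023830.14, chromosome 17, 12682406 to 12769664, minus strand) had 39.9, 43.9, 50.6 and 41.5 CPM in sham mice and 65.0, 47.5, 56.0 and 50.0 CPM in BCAS mice. BCAS mice 1 and 3 were above all sham mice. BCAS mice 2 and 4 were within their range because of sham mouse 3, and above the other sham mice, which reached 43.9 CPM. The log2 fold change of 0.31 ± 0.12 (SE) missed the threshold (adjusted p = 0.0714 from edgeR's test). It passed without BCAS mouse 2, at a log2 fold change of 0.39 (adjusted p = 0.0282 from edgeR's test). Without sham mouse 3 it was 0.38 (adjusted p = 0.0534 from edgeR's test). Airn, the antisense noncoding RNA of the imprinted Igf2r locus, rose from 0.892 ± 0.304 CPM to 1.64 ± 0.199 CPM (SD, n = 4 in each group), a log2 fold change of 0.88 (adjusted p = 0.0421 from edgeR's test). Airn had 12 to 41 counts per library, and reads of opposite strands were not separated in the counting.

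**Figure D2:**
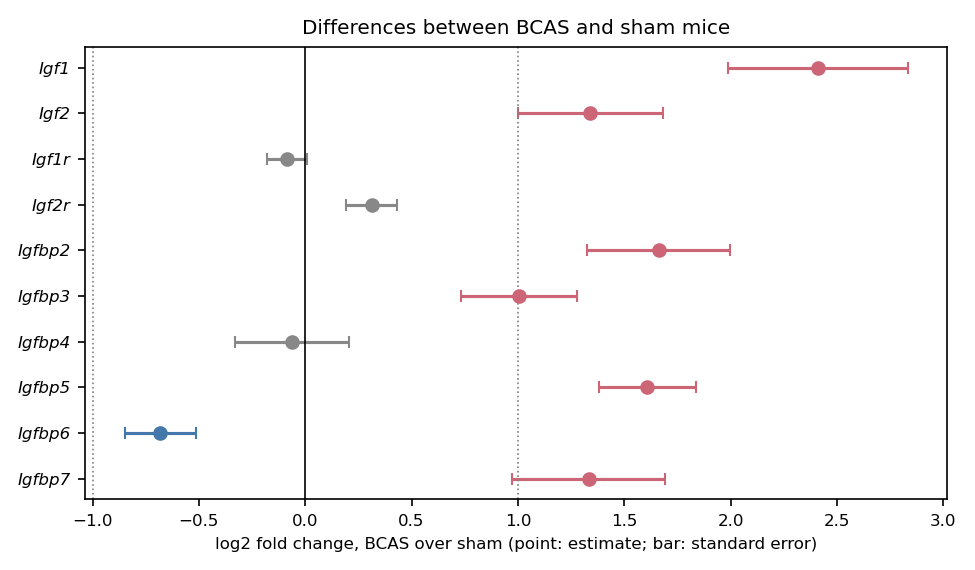
log2 fold change of BCAS over sham mice for the 10 genes (points) with standard errors (bars) from edgeR, n = 4 mice in each group, with dotted lines at -1 and 1. Red marks the 6 genes past both thresholds, blue Igfbp6, which passed the adjusted p alone, and grey the 3 genes that did not pass.

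Igfbp5 and Igfbp2 had the clearest differences of the binding proteins. Igfbp5 (ENSMUSG00000026185.8, chromosome 1, 72857932 to 72874884, minus strand), which binds both ligands and the extracellular matrix, had 207, 216, 195 and 219 CPM in sham mice and 753, 356, 813 and 631 CPM in BCAS mice 1 to 4. The sham mice were close together, with a coefficient of variation of 5.08%, and even BCAS mouse 2 was at 1.70 times their mean. This gave a log2 fold change of 1.61 ± 0.23 (SE) with an edgeR adjusted p of 0.00280, the smallest p among the 10 genes. Igfbp2 (ENSMUSG00000039323.18, chromosome 1, 72824503 to 72852474, plus strand), a binding protein of astrocytes, meninges and choroid plexus, had 40.7, 47.9, 52.3 and 44.7 CPM in sham mice and 251, 65.8, 129 and 141 CPM in BCAS mice. Its log2 fold change was 1.66 ± 0.34 (SE) with an edgeR adjusted p of 0.00912.

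Igfbp5 and Igfbp2 stayed past both thresholds in all 8 fits that left out 1 mouse. The lowest log2 fold changes were 1.47 for Igfbp5, without BCAS mouse 3, and 1.28 for Igfbp2, without BCAS mouse 1. Sham mouse 3, with its choroid plexus transcripts, had the highest sham value of Igfbp2, and without it the log2 fold change was 1.72. The 2 genes are separated by 5457 bases and are read towards each other. The order of the BCAS mice differed between them, with mouse 1 highest for Igfbp2 and mouse 3 for Igfbp5. All 5 astrocyte markers rose in the same libraries, at 4.59, 1.85, 3.50 and 3.39 times the sham mean of their sum in BCAS mice 1 to 4, while Igfbp2 was at 5.40, 1.42, 2.79 and 3.05 times and Igfbp5 at 3.60, 1.70, 3.89 and 3.02 times. Without sham mouse 3, 3 of the 5 astrocyte markers passed the adjusted and all 5 the unadjusted p, with the sum 3.31-fold higher in BCAS mice. The part of the astrocyte and meningeal markers in these differences was not tested.

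Igfbp7 and Igfbp3 were past the threshold by less than Igfbp5 and Igfbp2. Igfbp7 (ENSMUSG00000036256.13, chromosome 5, 77349240 to 77408041, minus strand), a secreted protein of the vessel wall, had 36.4, 33.7, 24.4 and 35.8 CPM in sham mice and 131, 32.6, 96.7 and 68.0 CPM in BCAS mice 1 to 4. BCAS mouse 2 lay inside the sham range, and the other 3 were above it. For Igfbp7 the log2 fold change was 1.33 ± 0.36 (SE) with an edgeR adjusted p of 0.0245. Igfbp7 kept the call in 3 of 8 fits that left out 1 mouse, and lost it without sham mouse 1, 2, 3 or 4 (adjusted p = 0.0608, 0.0638, 0.0614 and 0.0593 from edgeR's test) and without BCAS mouse 3 (0.0628). The log2 fold changes in these 5 fits were 1.38, 1.34, 1.21, 1.37 and 1.245, close to that of all mice. Polr2b on the opposite strand covers 7.03% of its exon bases.

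The sums of the endothelial and mural markers moved less than Igfbp7 in BCAS mice 1, 3 and 4. Of 6 endothelial markers 1 rose (0 past the adjusted and 1 past the unadjusted p without sham mouse 3 in edgeR's test), with a sum of 264 to 348 CPM in sham and 316 to 446 CPM in BCAS mice. Of 6 mural markers 3 rose, Cspg4, Pdgfrb and Abcc9, with log2 fold changes of 1.25, 1.00 and 0.68. Kcnj8, Acta2 and Rgs5 did not pass (0.67, 0.20 and 0.03). The sum of the 6 was at 1.71, 1.04, 1.28 and 1.37 times the sham mean in BCAS mice 1 to 4, beside 4.02, 1.00, 2.97 and 2.09 times for Igfbp7. Rgs5, the most abundant of the 6, had a mean of 153 CPM in sham and 156 CPM in BCAS mice. None of these 12 markers was at 0 in all libraries. The phagocyte, astrocyte, fibroblast and blood leukocyte sums had the same order of BCAS mice as Igfbp7. The part of any of these markers in the difference was not tested.

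Igfbp3 (ENSMUSG00000020427.11, chromosome 11, 7206086 to 7213923, minus strand), the main carrier of IGFs in blood, had 12.8, 13.7, 14.1 and 11.6 CPM in sham mice and 44.5, 18.6, 22.1 and 19.6 CPM in BCAS mice. All BCAS mice were above all sham mice, but 3 of them were close together and BCAS mouse 1 was far above them. The log2 fold change of 1.006 ± 0.27 (SE) with an edgeR adjusted p of 0.0247 was just past the threshold, and without BCAS mouse 1 it was 0.63 (adjusted p = 0.00622 from edgeR's test), short of it. Without sham mouse 1, 2 or 4 the adjusted p was 0.0674, 0.0615 and 0.0692, at log2 fold changes of 0.99, 1.02 and 0.95.

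Igfbp6 (ENSMUSG00000023046.6, chromosome 15, 102144362 to 102149511, plus strand), which prefers IGF2 over IGF1, was the member that fell. It had 45.2, 41.6, 29.1 and 36.4 CPM in sham mice and 18.6, 27.4, 26.7 and 22.4 CPM in BCAS mice 1 to 4. The groups did not overlap, with BCAS mouse 2 just below sham mouse 3. The mean went from 38.1 ± 7.02 to 23.7 ± 4.10 CPM (SD, n = 4 in each group), a log2 fold change of -0.68 ± 0.17 (SE) with an edgeR adjusted p of 0.0183, less in size than the log2 threshold of 1. The adjusted p was 0.0568 without sham mouse 1 and 0.0550 without sham mouse 2. Excitatory neuron markers were lower in the same libraries, at 0.364, 0.820, 0.578 and 0.530 times the sham mean of their sum in BCAS mice 1 to 4, beside 0.487, 0.718, 0.701 and 0.588 times for Igfbp6. Of these 6 markers 3 fell past the adjusted p and none was at 0. Without sham mouse 3, 1 passed the adjusted and all 6 the unadjusted p, with the sum at 0.558 times that of sham mice. Of 6 inhibitory neuron markers 3 fell past the adjusted p, while Gad2 had a log2 fold change of 0.02. Their sum was at 0.623, 0.806, 0.609 and 0.929 times the sham mean. BCAS mouse 4, at 973 CPM, lay inside the sham range of 903 to 1163 CPM. Without sham mouse 3, 2 passed the adjusted and 4 the unadjusted p, with the sum at 0.709 times that of sham mice. The part of the neuronal markers in the difference was not tested.

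Igfbp4 (ENSMUSG00000017493.12, chromosome 11, 99041244 to 99054392, plus strand), which mostly restrains IGF action until it is cleaved, had 111, 95.3, 61.0 and 110 CPM in sham mice and 104, 58.4, 128 and 70.2 CPM in BCAS mice. The groups overlapped over nearly their whole ranges. The log2 fold change of -0.06 ± 0.27 (SE) with an edgeR adjusted p of 0.871 changed its sign when sham mouse 1, sham mouse 4, BCAS mouse 2 or BCAS mouse 4 was left out (0.02, 0.01, 0.11 and 0.04), and with scaling by library size alone (0.03). It was -0.23 without sham mouse 3 and -0.28 without BCAS mouse 3, neither past the threshold (adjusted p = 0.513 and 0.436 from edgeR's test).

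**Figure D3:**
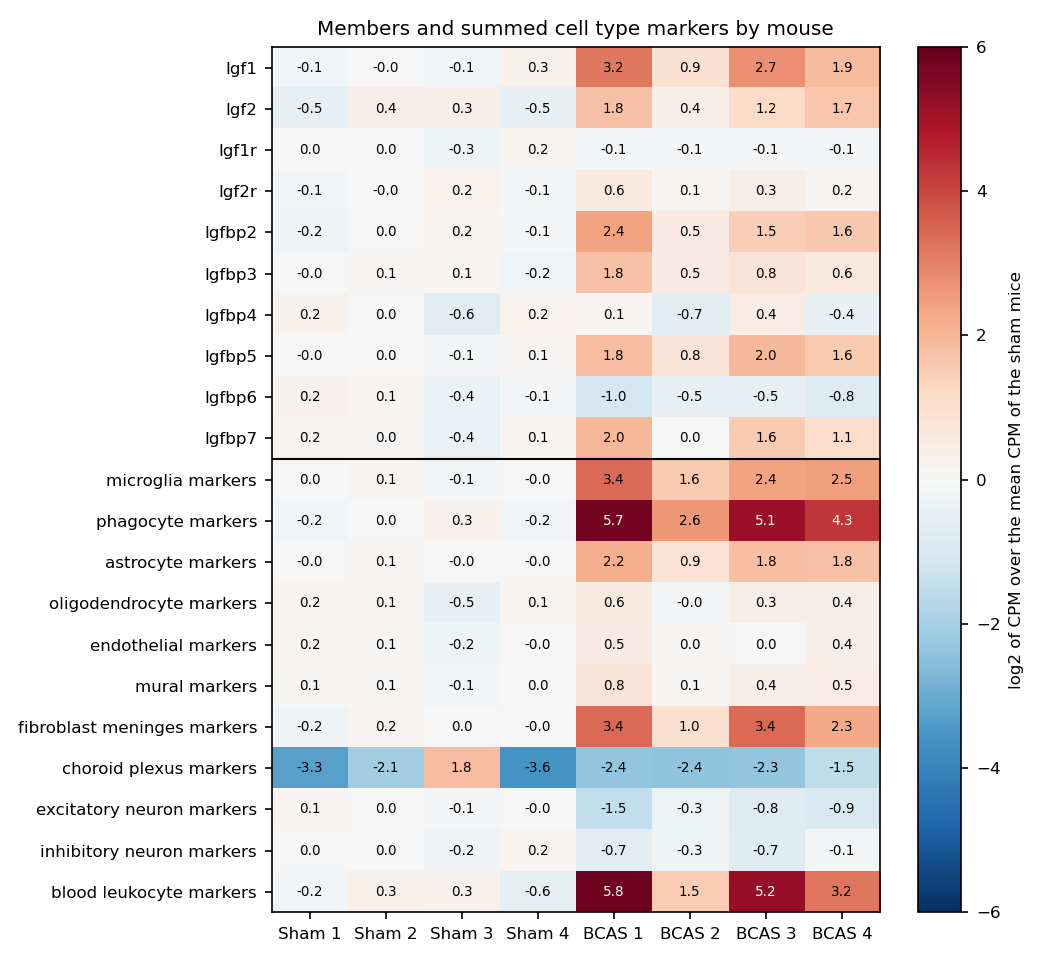
log2 of the CPM over the mean CPM of the sham mice for the 10 genes (upper rows) and for the summed markers of each cell type (lower rows), by mouse. Microglial, phagocyte, astrocyte, fibroblast and leukocyte markers are higher in all 4 BCAS mice, most in BCAS mouse 1, and the choroid plexus row sets sham mouse 3 apart, which also lifts the sham mean of that row.

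Levels of different genes were compared after division by exon length, as TPM, the length-scaled counts of a gene relative to those of all genes. In sham mice, Igfbp5, Igfbp6, Igfbp7, Igfbp2 and Igfbp4 were the most abundant, in this order, with means of 147 ± 6.20, 144 ± 22.8, 113 ± 17.2, 106 ± 13.8 and 89.6 ± 20.7 TPM (SD, n = 4). The ranges of neighbours in this order overlapped throughout. Igf2r, Igf1r and Igfbp3 followed at 20.0 ± 2.68, 19.4 ± 2.05 and 17.6 ± 1.67 TPM, also with overlapping ranges, and then Igf1 at 5.24 ± 0.783 and Igf2 at 2.29 ± 0.793 TPM. In BCAS mice Igfbp5, Igfbp2 and Igfbp7 led with 442 ± 131, 329 ± 162 and 280 ± 135 TPM, and all values of these 3 lay above those of Igfbp6 at 89.6 ± 17.2 TPM. Igf1 reached 27.2 ± 15.4 TPM, and its range overlapped those of Igfbp3 and Igf2r. With the 2029 exon bases that no other gene covers as its length, Igf2 had 6.46 ± 2.24 TPM in sham and 16.1 ± 5.79 TPM in BCAS mice. In sham mice its mean was then above that of Igf1, so the order of the ligands depends on the length. Division by all exon bases understates Igf2 to the extent that pairs on shared bases were left out.

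The summed level of the 2 ligands was 6.22, 7.95, 7.95 and 8.003 TPM in sham mice and 52.4, 13.2, 39.1 and 27.0 TPM in BCAS mice 1 to 4. The 6 binding proteins summed to 550 to 644 TPM in sham mice and to 1701, 716, 1423 and 1199 TPM in BCAS mice 1 to 4. Transcripts of binding proteins thus outnumbered those of ligands in every mouse. With all exon bases as the length, the ratio was 83.2 ± 14.5 to 1 in sham and 41.9 ± 9.57 to 1 in BCAS mice (SD, n = 4). The highest BCAS value of 54.1 was below the lowest sham value of 69.1. These ratios, and the share of Igf1 with this length, are too high to the extent that Igf2 is understated. With the exon bases of no other gene as the length, the ratios were 55.2 ± 13.3 and 31.2 ± 5.07, and all 4 BCAS mice were again below the lowest sham value of 41.4. With all exon bases, Igf1 made up 69.9 ± 8.69% of the ligand transcripts in sham and 80.6 ± 6.99% in BCAS mice, with overlapping ranges. With the exon bases of no other gene, it made up 45.9 ± 10.5% and 60.4 ± 10.8%.

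The mixture of binding proteins differed as well. Igfbp5 made up 22.0% to 25.9% of the summed binding protein TPM in sham and 29.6% to 39.2% in BCAS mice, with no overlap. Igfbp6 went from 20.8% to 26.0% in sham mice to 3.94%, 14.9%, 6.94% and 7.19% in BCAS mice 1 to 4, again with no overlap. The share of Igfbp4 was 11.0% to 16.4% in sham and 5.54% to 8.41% in BCAS mice, although no difference in its own level passed the test. The share of Igfbp2 was 17.4 ± 3.66% in sham and 25.3 ± 5.46% in BCAS mice, and that of Igfbp7 was 18.3 ± 1.56% and 21.3 ± 4.01%, with overlapping ranges for both. Igfbp3 stayed at 2.88 ± 0.497% and 2.81 ± 0.783%. Without division by length the share of Igfbp2 was 3.29 and that of Igfbp7 0.276 percentage points higher in BCAS than in sham mice, in place of 7.89 and 3.00. The differences of Igfbp5, Igfbp6 and Igfbp4 were then 15.2, -6.03 and -12.4 percentage points, in place of 11.7, -14.99 and -7.47. These shares are bound to sum to 100, so they are given without a test.

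**Figure D4:**
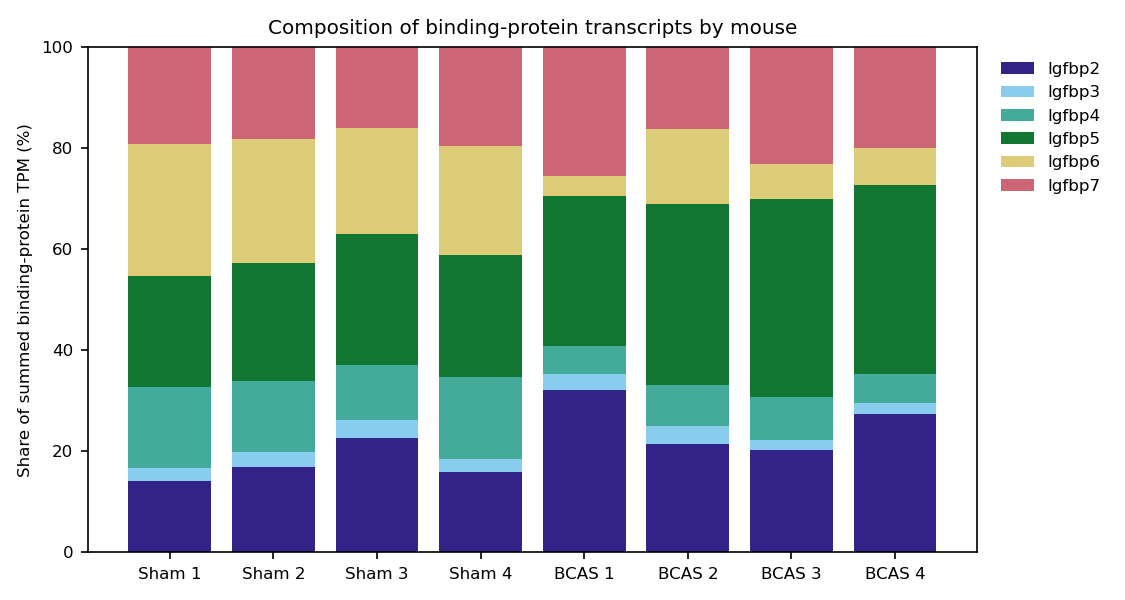
Share of each of the 6 binding proteins in their summed TPM (percent, stacked to 100) in the 4 sham and 4 BCAS mice. The Igfbp6 band (yellow) is narrowest in BCAS mouse 1 at 3.94%, and the Igfbp5 band (green) is wider in each BCAS mouse than in the sham mice.

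The rest of the pathway was described by lists of other genes, beside the 19.2% of all tested genes that were higher and 12.8% that were lower at an adjusted p under 0.05. Of the insulin genes, Ins1 had 0 counts in all libraries and Ins2 had 4 counts, all in sham mouse 3. The insulin receptor Insr had 71.0 ± 1.47 CPM in sham and 73.6 ± 1.84 CPM in BCAS mice (log2 fold change 0.05, adjusted p = 0.546 from edgeR's test), and its relative Insrr had a log2 fold change of 1.076 with group means of 0.438 and 0.925 CPM (adjusted p = 0.208 from edgeR's test). Among 8 carriers, proteases and protease inhibitors, Igfbp1, whose gene lies 3539 bases from Igfbp3, had 9 counts over all libraries and Igfals had 30, so 6 could be tested. By edgeR's test 0 of these 6 passed an adjusted or an unadjusted p of 0.05, and DESeq2 and limma-voom also gave 0 at the adjusted p. They were Igfbpl1, the proteases Pappa, Pappa2 and Htra1, which cleave binding proteins, and the pappalysin inhibitors Stc1 and Stc2, with log2 fold changes of 0.66, 0.86, -0.48, 0.38, -0.11 and 0.22.

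Of 5 proteins related to the binding proteins, Kazald1 fell from 6.35 ± 1.41 to 3.22 ± 0.917 CPM (log2 fold change -0.98, adjusted p = 0.0230 from edgeR's test), while Ccn1, Ccn2, Ccn3 and Esm1 did not pass. Of 5 genes of the growth hormone input to Igf1, 2 rose. Stat5a, a transcription factor downstream of the growth hormone receptor and of many cytokine receptors, had a log2 fold change of 1.895 ± 0.50 (SE) with an edgeR adjusted p of 0.0221, with 3.14 CPM in BCAS mouse 2 inside the sham range of 1.0797 to 3.87 CPM. Stat5b had a log2 fold change of 0.45 (adjusted p = 0.0125 from edgeR's test). The receptor Ghr, the kinase Jak2 and the feedback inhibitor Socs2 did not pass, with log2 fold changes of 0.15, 0.35 and -0.14.

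Of 31 genes that carry the signal inside the cell, 3 rose, 8 fell and 20 did not pass, with a median log2 fold change of -0.10. The 3 that rose were the adaptor Shc1 (1.42, adjusted p = 0.00757 from edgeR's test), the translation repressor Eif4ebp1 (1.04, adjusted p = 0.0221) and the transcription factor Foxo1 (0.57, adjusted p = 0.0302). The 8 that fell were the phosphoinositide 3-kinase subunit Pik3r2, the kinases Pdpk1, Mtor, Gsk3b and Map2k1, the GTPases Rheb and Hras, and the transcription factor Foxo3, by 0.28 (Mtor) to 0.51 (Pik3r2) on the log2 scale. The receptor substrates Irs1 and Irs2 had log2 fold changes of -0.06 and 0.05 (adjusted p = 0.779 and 0.837 from edgeR's test).

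Of 7 genes of mannose 6-phosphate sorting, the other role of Igf2r, 3 rose. Nagpa, which uncovers the mannose 6-phosphate tag, rose from 12.2 ± 1.12 to 28.9 ± 13.1 CPM (log2 fold change 1.25, adjusted p = 0.0142 from edgeR's test). M6pr, the smaller mannose 6-phosphate receptor, and Gnptab, a subunit of the enzyme that adds the tag, had log2 fold changes of 0.55 and 0.26 (adjusted p = 0.0242 and 0.0428 from edgeR's test). Gnptg, Gga1, Gga2 and Gga3 did not pass.

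**Figure D5:**
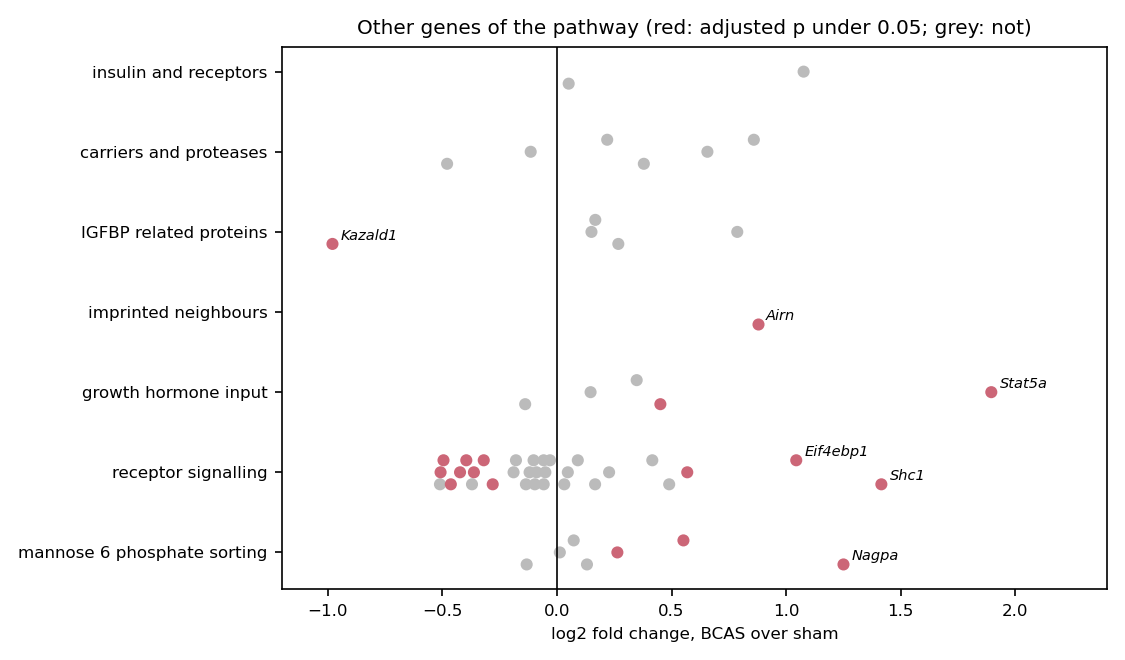
log2 fold change of BCAS over sham mice for the tested genes of 7 lists around the IGF family (each point a gene, n = 4 mice in each group, small vertical offsets for legibility). Red points had an adjusted p under 0.05, and those beyond 0.8 in size are named, from Kazald1 at -0.98 to Stat5a at 1.895.

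The 3 genes with the most similar profile over the 8 libraries were sought for each member among 12549 tested genes with a mean of at least 5 CPM, by the root-mean-square difference of log2 CPM relative to the sham mean. For Igf1 they were Arhgap19, Cd274 and Myof, at 0.11, 0.12 and 0.13. For Igfbp5 they were Efemp1, an extracellular matrix glycoprotein, Ahnak and Tmem176b, at 0.11, 0.14 and 0.15. Igfbp2 was nearest to Fhod1, Cflar and Tax1bp3 (0.13, 0.14 and 0.14), Igfbp3 to St3gal6, Rttn and Rps27l (0.16 for each), and Igfbp7 to Plekho2, Esyt1 and Adgre5 (0.13, 0.14 and 0.14). Igf2 was nearest to P3h2, Sema3b and Aldh1a2 (0.19, 0.20 and 0.22), and Igfbp6 to E2f1, Sytl2 and Lrrc8b (0.05, 0.08 and 0.08). For the genes with little difference between the groups, the nearest were Selenok, Zfp775 and Letmd1 for Igf1r (0.04, 0.05 and 0.05), Mcfd2, Sh3kbp1 and Srpr for Igf2r (0.04, 0.05 and 0.05), and Flt3, Npnt and Fbxo32 for Igfbp4 (0.20, 0.22 and 0.22). With only 8 libraries, many other genes may share such profiles, and how many lie within these distances was not counted.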

How the data were processed

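The members and gene lists were chosen with earlier results of these data known. The authors trimmed the reads with Trim Galore, aligned them to mm10 with HISAT2 and sorted them with SAMtools 1.9, and deposited raw counts of read pairs per gene, 1 table per mouse. The table headers name featureCounts 2.0.1 with GENCODE vM20 and no strand option, whereas the methods name featureCounts 1.6.3 and RefSeq genes. Without strand, a gene and its antisense partner cannot be separated where their exons overlap. Coordinates are those of the tables. Symbols were matched for 54723 of 54752 gene IDs in a reference table, 53861 of them with the same version.

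Genes were filtered with filterByExpr (minimum count 10, minimum total 15) and tested with edgeR 4.0.16 in R 4.3.3 by its quasi-likelihood test for BCAS versus sham mice, with TMM scaling (factors 0.949 to 1.05), no covariates, and Benjamini-Hochberg adjustment over 17136 genes. Standard errors were derived from each fold change with the square root of its F value. The study's own test, limma, was an alternative (limma 3.58.1), as was DESeq2 1.42.0. The procedures were tried on simulated counts with the same dispersion for every gene in both groups. This did not test them under a spread that is wider in BCAS mice. The named genes are the 10 members, the genes of lists of at most 8 genes, those of longer lists with an adjusted p under 0.05, and the 3 nearest profiles of each member. Irs1 and Irs2 fall outside this rule and were chosen after their values were seen. The prior count behind log2 CPM in the profiles was 2. TPM used all exon bases of a gene. The length without bases shared with other genes was chosen after seeing the data. Python 3.11.15 with matplotlib 3.10.9 made the figures. Of the listed genes, 2 are not reported here, and list counts and sums leave them out.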

Additional observations from a re-analysis of the deposited data

Results flagged for a closer look

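In a group of 4 mice, a value was looked at again when its gap to the nearest other mouse as a share of the range of the group exceeded Dixon's 95% critical value, which chance alone gives in about 1 of 20 groups. Of 20 groups examined (10 genes in sham and in BCAS mice), 1 met this. Igfbp3 in BCAS mouse 1, at 44.5 CPM, lay far above the other BCAS mice, which had 18.6, 22.1 and 19.6 CPM, with a gap of 0.865 of the range. The same mouse had the highest level of Igf1, Igf2, Igf2r, Igfbp2 and Igfbp7.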

How the results depend on the processing

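Igf1 stayed past both thresholds in all 8 fits that left out 1 mouse and in all 12 other fits. Igfbp2 and Igfbp5 did so in all 8 and in 11 of 12. Igf2, Igfbp7 and Igfbp3 kept the call in 5, 3 and 4 of the 8 and in 10, 10 and 5 of the 12. Igfbp6 kept an adjusted p under 0.05 in 6 of the 8. When the null was a log2 fold change of 1, not 0, 1 gene of the family was called, Igf1 (adjusted p = 0.0374 from edgeR's test). Igfbp5 with a log2 fold change of 1.61, Igfbp2 with 1.66, Igf2 with 1.34, Igfbp7 with 1.33, Igfbp3 with 1.006 and Igfbp6 with -0.68 did not pass this stricter test. Over all genes it called 744, 739 higher and 5 lower, whereas the adjusted p alone called 5490, 3291 higher and 2199 lower, among them 1 lower member.

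With the replicate number as a block, Igf1, Igfbp2 and Igfbp5 were the 3 members called. Igf2 and Igfbp7 lost the call at log2 fold changes of 1.31 and 1.19 (edgeR adjusted p = 0.0664 and 0.0542), and so did Igfbp3 at 0.91 (0.0441). Igfbp6, at -0.68, no longer passed the adjusted p (0.05005). The deviations of same-numbered sham and BCAS mice correlated at -0.103 to 0.00126, and those of the other pairs at -0.112 to 0.125. These values cannot tell whether same-numbered mice shared a batch, which was not tested. The block moved the count of called genes from 2097 to 1809.

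With library size alone as the scaling, Igf1r and Igfbp4 changed sign, at 0.0044 and 0.031, and Igf2r passed the adjusted p with a log2 fold change of 0.40. With sample quality weights in limma-voom Igf2r passed at 0.32. The number of lower genes over the whole table was 220, and it was 145 with limma on log2(CPM + 1) and 340 with the quality weights. Leaving out 1 mouse gave 86 to 559 lower genes, 3 to 6 higher members, and log2 fold changes of 1.18 to 1.56 for Igf2, 0.63 to 1.15 for Igfbp3, 1.03 to 1.61 for Igfbp7, -0.80 to -0.57 for Igfbp6, 0.23 to 0.39 for Igf2r and -0.28 to 0.11 for Igfbp4, which was 0.02 without sham mouse 1, 0.01 without sham mouse 4, 0.11 without BCAS mouse 2 and 0.04 without BCAS mouse 4. The fits that left out a mouse had 3 mice in 1 group, and the cause of the other changes was not tested. Taken from counts without division by length, the differences in share between BCAS and sham mice were -12.4 percentage points for Igfbp4, 15.2 for Igfbp5, -6.03 for Igfbp6, 3.29 for Igfbp2 and 0.276 for Igfbp7, in place of -7.47, 11.7, -14.99, 7.89 and 3.00. Igf2 rests on 36 to 240 counts per library. The marker lists and the variation of Igf1r were also examined without sham mouse 3, a choice made after seeing the data.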
